A study of Mus musculus with 15 samples.

Results

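The respiratory chain genes of the mitochondrial genome and of the nuclear genome were followed library by library in medial ganglionic eminence (MGE)-derived cortical interneurons of embryonic mice. The members were the protein-coding genes whose symbols begin with mt-, together with the nuclear Nduf, Sdh, Uqcr, Cyc1, Cox4 to Cox8 and Atp5 subunit genes. They numbered 94 in each of the tables analysed, of 26835 genes listed for the Lhx6 comparison and 25714 for the Mtg8 comparison. Of these, 13 lie on the mitochondrial genome and 81 on nuclear chromosomes. By complex, 7 mitochondrial and 36 nuclear members carry names of complex I subunits, 0 and 4 of complex II, 1 and 9 of complex III, 3 and 15 of complex IV, and 2 and 17 of complex V. The choice used names alone and no measured value.

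The study asked what the transcription factor LHX6 and the transcriptional corepressor MTG8 do in these cells. All embryos carried Nkx2-1-Cre and the R26R-YFP fl/fl reporter on a mixed C57BL6/CBA background and were taken at embryonic day 14.5. Nkx2-1-Cre drives recombination in the Nkx2-1-expressing lineage, so YFP marks cells that came from that lineage whatever they later became. The groups were Lhx6+/+ controls (4 libraries), Lhx6-/- mutants (5), Mtg8+/+ controls (3) and Mtg8-/- mutants (3), described as littermates, with cortical YFP+ cells of each embryo sorted and sequenced separately. Both genotypes are given for the whole embryo and not for the sorted cells alone. P-values therefore measure the spread between embryos.

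Complexes I, III and IV of the inner mitochondrial membrane pass electrons to oxygen and pump protons outwards, complex II feeds in electrons from succinate without pumping, and complex V, the ATP synthase, makes ATP as protons flow back. Complexes I, III, IV and V are built from subunits of both genomes, whereas complex II is entirely nuclear. The mitochondrial genes are transcribed inside the organelle as long polycistronic RNAs that are cut into single messages, mostly at the tRNAs that lie between them, while the nuclear subunits are made in the cytosol and imported. Neurons depend on this pathway for much of their ATP, and the supply of the subunits requires both genomes to be expressed.

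Depth was 12218422 to 22053032 reads counted per library. Lhx6 was at 5812 to 8441 normalized counts in the Lhx6 controls and 236 to 495 in the mutants. Runx1t1, the gene of MTG8, was at 7938 to 10265 in the Mtg8 controls and 12250 to 13934 in the libraries labelled Mtg8 mutant, so its count does not check that label. Sst, an interneuron gene, was at 14420 to 18501 in the Mtg8 controls and 5683 to 8048 in the libraries labelled mutant, without overlap (log2 fold change -1.34, adjusted p = 0.0713 by limma). Among markers of MGE interneurons, Sst, Lhx6 and Satb1 were lower and Dlx5 higher in the Lhx6 mutants by limma. Summed markers of red blood cells ranged from 5983 to 58753 normalized counts in Lhx6 controls, 1847 to 20458 in Lhx6 mutants, 10888 to 27197 in Mtg8 controls and 15515 to 31775 in Mtg8 mutants. Library names were undated for every Lhx6 control and for Lhx6 mutant 6, and dated for Lhx6 mutants 1, 2, 3 and 5, so that name style and genotype largely coincide in that table. In the Mtg8 table, controls 1 and 2 and mutant 2 were dated and control 4 and mutants 3 and 4 undated. The 3 dated Mtg8 libraries share a number in their names, as do Lhx6 controls 1 and 2 with Lhx6 mutant 6 and, separately, Lhx6 mutants 2 and 5, and what that number stands for is not stated in the sources used here. In bulk RNA, fewer cells of a type and less RNA per cell cannot be told apart.

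Transcripts of the mitochondrial genome were the more abundant by far. In Lhx6 controls the median member was at 21982 normalized counts per kb of exon for the 13 mitochondrial genes and at 1377 for the 78 nuclear genes that were tested, those averaging 10 normalized counts or more over the libraries. The Mtg8 controls, normalized separately, gave 28997 and 1380. mt-Atp6, the proton-channel subunit of the ATP synthase, led at 90299.8 ± 13188 per kb (SD, n = 4) in Lhx6 controls. mt-Cytb, the cytochrome b of complex III, followed at 67309 ± 8710 per kb, and mt-Co3, a core subunit of cytochrome c oxidase, at 60608 ± 5137. mt-Co2, which takes electrons from cytochrome c, stood at 47556 ± 5686 per kb and mt-Atp8 at 47165 ± 5607. The catalytic subunit mt-Co1 was at 32526 ± 4100. The 7 complex I genes were the lowest, running from mt-Nd1 at 21982 ± 3091 per kb down to mt-Nd3 at 1875 ± 342. In this order mt-Co2 and mt-Atp8, and mt-Nd6 (3133 ± 657) and mt-Nd5 (2759.6 ± 443) lay closer to each other than their SDs, and mt-Cytb and mt-Co3 closer than the SD of mt-Cytb alone. The order differed in part in the Mtg8 controls (SD, n = 3). There mt-Co3 led at 122856 ± 8152 per kb, with mt-Atp6 at 121264 ± 1249, closer than the SD of mt-Co3. mt-Atp8 (66514 ± 1963) stood above mt-Co2 (59754 ± 2442). The lead of mt-Co3 did not hold at the chromosome 1 copies of these genes, described below. Over all Mtg8 libraries mt-Co3 averaged 89189 normalized counts and mt-Atp6 80893, but their copies 91535 and 97293.

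Among nuclear members the highest level per kb in Lhx6 controls belonged to Cox6b1 in complex IV (6479.6 ± 606), followed as leaders of their complexes by Ndufc2 in complex I (4464 ± 276), the central-stalk gamma subunit Atp5c1 in complex V (3407 ± 76.0), Uqcr10 in complex III (3209.9 ± 206) and the iron-sulfur subunit Sdhb in complex II (2252 ± 81.1). In the Mtg8 controls the same genes led complexes I to IV, and Atp5a1, the catalytic-head alpha subunit, led complex V at 4351 ± 840 per kb (SD, n = 3). The lowest mitochondrial gene, mt-Nd3, lay above the nuclear median of 1377 per kb, and the ranges of both genomes overlapped.

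Several mitochondrial genes are not counted independently of one another or of the nuclear genome, and the sequences are printed to show where. The reading frames of mt-Atp8 and mt-Atp6 overlap by 43 bases on the same strand, shown in capitals at chrM:7907-7989 of GRCm38 with 20 bases on either side, and those of mt-Nd4l and mt-Nd4 by 7 bases at chrM:10147-10193.
mt-Atp8 into mt-Atp6: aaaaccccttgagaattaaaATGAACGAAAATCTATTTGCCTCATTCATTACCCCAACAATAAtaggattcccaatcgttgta
mt-Nd4l into mt-Nd4: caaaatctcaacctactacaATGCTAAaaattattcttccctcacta
In each run the capitals open with the ATG of the downstream gene and close with the stop codon of the upstream one. mt-Nd5 and mt-Nd6 overlap on opposite strands, and whether the counting used strand is not stated in the sources used here.

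A stretch of chromosome 1 (chr1:24611535-24616197) holds pseudogene copies of a run of mitochondrial genes from mt-Co1 to mt-Nd4. Gm28661 matched mt-Co2 at all 681 aligned bases of 684, Gm10925 matched mt-Atp6 at 678 of 681, Gm28437 matched mt-Co3 at 783 of 784, and Gm10222 matched mt-Nd4l at 294 of 297, with 0 mismatches. Gm28438 differed from mt-Nd3 at 1 of 345 aligned bases, T3C in the reading direction of the gene counted from its first base. The first 60 bases of mt-Co2 (chrM:7013-7072, plus strand) and of Gm28661 (chr1:24615506-24615565, minus strand) are printed as a pair of places that a read cannot tell apart, with the start codon in capitals.
mt-Co2: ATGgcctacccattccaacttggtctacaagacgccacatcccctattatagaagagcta
Gm28661: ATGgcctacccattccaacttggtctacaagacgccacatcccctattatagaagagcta
The reads at this pair were almost the same number in every library: 30827 and 30854 in Lhx6 control 1, and the copy held 100.06% to 100.1% of the gene's reads across the Lhx6 libraries. The copy of mt-Nd4l held 100.2% to 100.6%, that of mt-Co3 102.2% to 102.9%, and that of mt-Nd3 94.1% to 107.4%. The copy of mt-Atp6 held more than the gene, 117.5% to 119.4% in Lhx6 libraries and 120.0% to 120.7% in Mtg8 libraries. How reads that align to more than 1 place were counted is not stated in the sources used here.

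In all, 9 of the 13 mitochondrial members shared at least 1 run of 75 bases, the read length, with another annotated gene, and 6 shared over 50% of their runs. Of the 81 nuclear members 38 shared some, mostly with processed copies, and 0 shared over 50%. The chromosome 1 copies took 1.17% to 2.41% of all reads in the Lhx6 libraries, and they followed the mitochondrial genes. A level given for mt-Co2, mt-Co3, mt-Atp6, mt-Nd3 or mt-Nd4l cannot be assigned to the gene or to its copy by sequence.

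**Figure D1:**
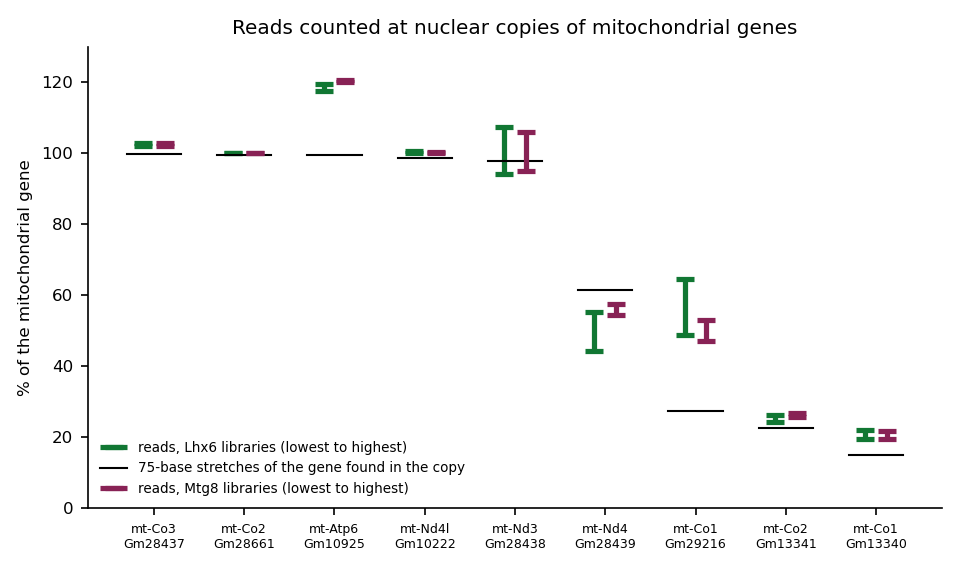
Reads counted at nuclear copies as a percentage of the reads at the mitochondrial gene (bars, lowest to highest library in each table), with the share of the gene's 75-base runs that the copy holds (black lines). Pairs sharing nearly all runs sit between 94.1% and 120.7%, and partial copies far lower.

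In the Lhx6 table, no member of either genome passed the test. limma called 0 of the 13 mitochondrial and 0 of the 78 nuclear genes tested at an adjusted p under 0.05, against 0.682% of all 16727 genes called lower and 1.03% called higher, 1.71% in all. DESeq2 and edgeR on the recovered reads likewise called 0 members, while calling 811 and 280 genes in all. At an unadjusted p under 0.05, limma had 2 of the 13 mitochondrial genes (15.4%, both higher) and 2 of the 78 nuclear genes (2.56%, 1 higher and 1 lower), against 12.7% of all genes, 7.11% higher and 5.63% lower. No tested member had groups that did not overlap, which held for 6.22% of all genes tested, 3.03% with mutants lower and 3.19% with mutants higher. The 95% interval of the fold change lay within 2-fold either way for 10 of the 13 mitochondrial and 73 of the 78 nuclear genes, and within 1.5-fold for 1 and 48.

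The share of reads on the mitochondrial genes varied between libraries of the same group. The 13 genes took 2.02%, 2.16%, 2.07% and 2.55% of all reads in Lhx6 controls 1 to 4, and 3.87%, 2.53%, 2.29%, 2.30% and 2.20% in mutants 1, 2, 3, 5 and 6. The groups overlapped, at 2.20% ± 0.238 (SD, n = 4) and 2.64% ± 0.701 (SD, n = 5), and mutant 1 stood apart. The 81 nuclear genes took 1.35%, 1.48%, 1.36% and 1.41% in the controls and 1.57%, 1.47%, 1.16%, 1.42% and 1.48% in the mutants, with mutant 1 the highest and mutant 3 the lowest. The log2 ratio of the means was 0.26 for the mitochondrial share and 0.02 for the nuclear share. Without mutant 1 they were 0.08 and -0.02. Within the undated libraries, mutant 6 against the 4 controls, the values were -0.002 and 0.08. The reads of the mitochondrial genes were 1.46 to 1.80 times those of the nuclear members in controls and 1.48 to 2.48 times in mutants. That ratio is free of the size factor of the library, and it too was highest in mutant 1. On the log2 scale the groups differed in it by 0.22, and by 0.11 without mutant 1.

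**Figure D2:**
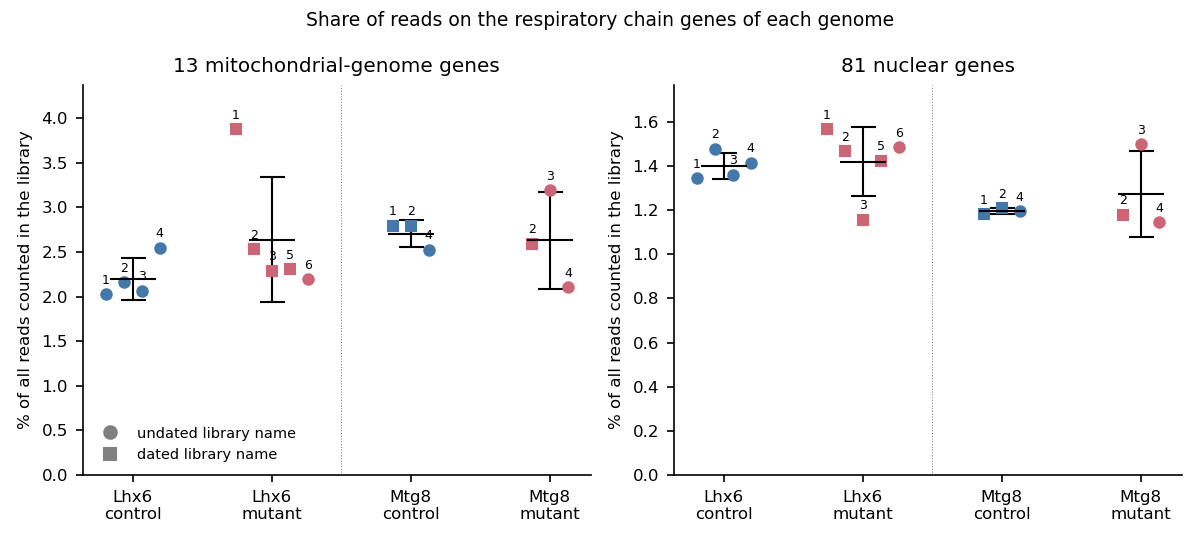
Percentage of all reads counted that fell on the 13 mitochondrial (left) and 81 nuclear (right) genes, 1 point per library numbered by replicate, squares for dated and circles for undated library names, bars for mean and SD. Lhx6 mutant 1 lies highest at 3.87% on the left, and Lhx6 mutant 3 low at 1.16% on the right.

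Every mitochondrial gene had a higher mean in Lhx6 mutants on the log2 scale, with a median log2 fold change of 0.30 against -0.04 over all genes. The values ran from 0.17 (mt-Nd4l) to 0.64 (mt-Nd6), and adjusted p-values by limma were 0.375 to 0.736. Mutant 1 was the highest of the 9 libraries in 13 of 13, by 1.36-fold (mt-Cytb) to 3.07-fold (mt-Nd2) over the mean of the others. Without it the median was 0.12, whereas without mutant 6 it was 0.39. With name style as a covariate the median was -0.001, with values from -0.33 to 0.19 and 7 of the 13 on the other side of 0. Every dated Lhx6 library is a mutant, so that fit sets mutant 6 alone against the controls.

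mt-Nd6, the only member encoded on the opposite strand of the mitochondrial genome, was at 1214, 1659, 1584 and 2046 normalized counts in controls 1 to 4 and at 5315, 2772, 1648, 2168 and 1819 in mutants 1, 2, 3, 5 and 6. Mutants 3 and 6 lay within the control range and mutant 5 just above it. The log2 fold change was 0.64 ± 0.29 (SE; adjusted p = 0.390 by limma, exact permutation p = 0.119), and 0.37 without mutant 1. mt-Co1, chrM:5328-6872, was at 44832, 48005, 48769.6 and 59404 in controls and 107905, 64914, 59849, 59393 and 52475 in mutants. Its log2 fold change was 0.41 ± 0.18 (adjusted p = 0.375 by limma, exact permutation p = 0.0556), and 0.24 without mutant 1, with control 4 among the mutants. mt-Nd4l, chrM:9877-10173, was at 2576, 2715, 2524 and 3107 in controls and 5219, 3194, 2687, 2816 and 2166 in mutants, so that mutant 6 was the lowest library of all. Its log2 fold change was 0.17 ± 0.21 (adjusted p = 0.736 by limma) and -0.02 without mutant 1.

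mt-Cytb was at 72342, 72796, 70966 and 91902 in controls and at 109097, 81474, 87276, 79691 and 83164 in mutants, with control 4 above 4 of the mutants. mt-Nd2, a proton-pumping subunit of complex I, was at 4444, 5117, 4643 and 6137 in controls and 16965, 7255, 4867, 6656 and 5043 in mutants. mt-Atp6 was at 57446, 57669.6, 55944 and 74917 in controls and 108434, 68497, 69019, 64662 and 62856 in mutants. In each of these genes mutant 1 exceeded every other library and control 4 was the highest control. The mitochondrial rRNAs were likewise highest in mutant 1 and, among controls, in control 4, with 0.218% to 0.322% of reads in controls, 0.996% in mutant 1 and 0.218% to 0.440% in the other mutants. Malat1, a long RNA kept in the nucleus, took 0.325% to 0.412% in controls and 0.420% to 0.840% in mutants, without overlap and again highest in mutant 1. Summed markers of the pyramidal lineage (10 genes, all present) ranged from 20205 to 26202 normalized counts in controls and 25884 to 37077 in mutants, with mutant 1 the highest. The higher sum came from Bcl11b, the 1 gene of the list that limma called, at 5256 to 7877 in controls and 9500.5 to 22824 in mutants (log2 fold change 1.43, adjusted p = 0.00353). With name style as a covariate, which leaves mutant 6 alone against the controls, the log2 fold change of Bcl11b was 0.67. The other 9 genes of the list, summed apart after the values were seen, gave 14949 to 20675 in controls and 11933 to 16383 in mutants, with 14253 in mutant 1. The part that any of these played in the differences was not tested.

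**Figure D3:**
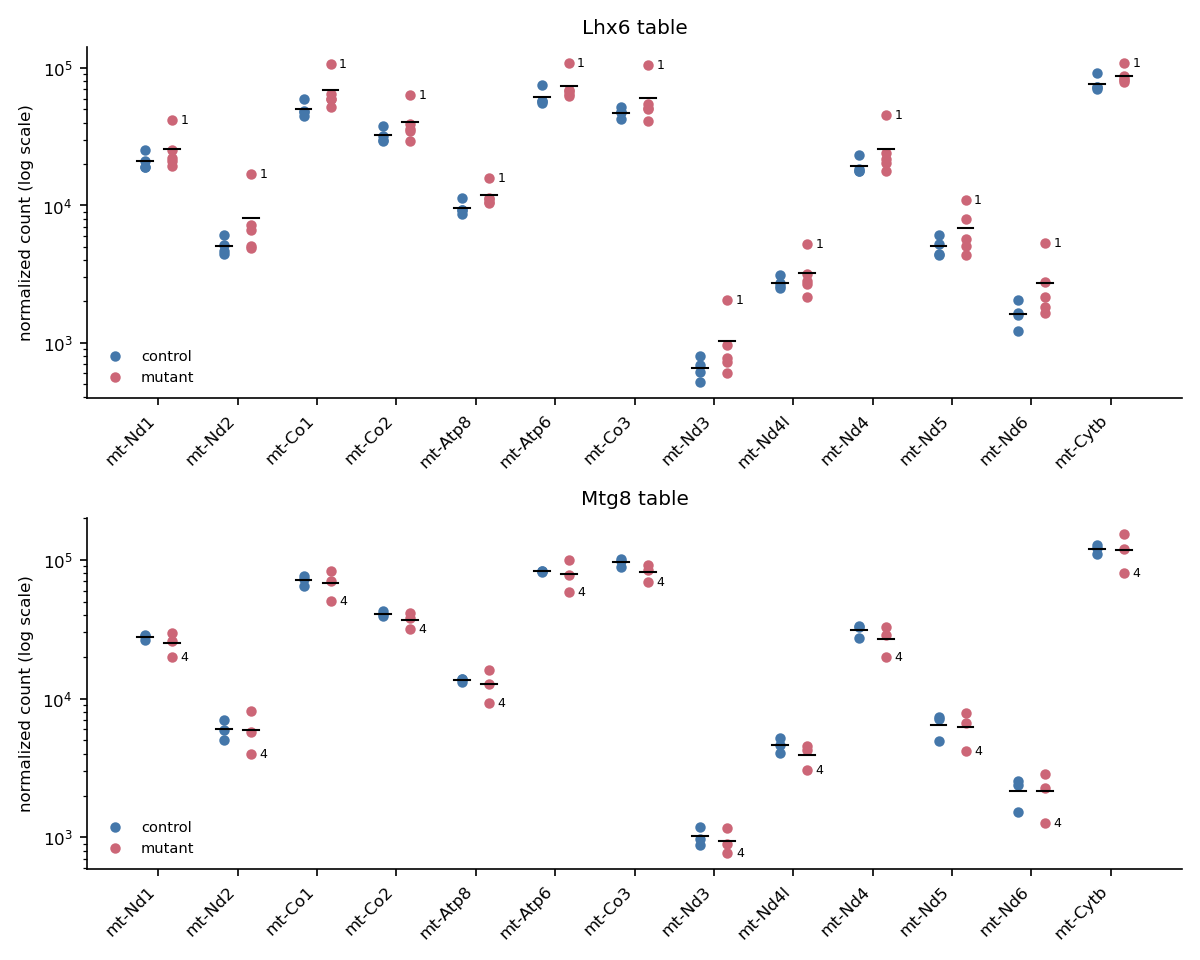
Normalized counts (log axis) of the 13 mitochondrial genes in genome order, 1 point per library with black bars at group means, Lhx6 table above and Mtg8 table below. Lhx6 mutant 1 (marked 1) is the top point for all 13 genes and Mtg8 mutant 4 (marked 4) the bottom point for all 13.

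The wider spread of the mitochondrial genes between libraries of 1 group rested on single libraries. The median within-group SD of log2 values was 0.37 for the 13 genes in the Lhx6 table, against 0.25 for 3743 genes in the same range of means, with genes averaging under 500 normalized counts left out. The 75 nuclear members had 0.26, the same as the 0.26 of 5262 genes in their range. Without mutant 1, left out after the values were seen, the mitochondrial genes had 0.17 and the genes in their range 0.20. In the Mtg8 table the values were 0.27 against 0.24 for mitochondrial genes, and 0.25 against 0.24 for nuclear ones. Without Mtg8 mutant 4 the mitochondrial genes had 0.15, against 0.19.

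Nuclear members in the Lhx6 table had a median log2 fold change of 0.12, with 60 of 78 on the higher side and values from -0.44 to 0.66. With equal totals of nuclear reads the median was 0.07, with 10 of the 78 on the other side of 0, and that of all genes -0.08. Without mutant 1 the median was 0.02, with 47 of 78 higher and 19 on the other side of 0. Name style as a covariate leaves mutant 6 alone against the controls, and the median was then 0.07, with 18 on the other side. By complex the medians were 0.13 for complex I (30 of 36 higher), -0.09 for complex II (1 of 4), 0.15 for complex III (6 of 9), 0.12 for complex IV (10 of 12 tested) and 0.09 for complex V (13 of 17). Within complex I by name, the 7 nuclear subunits of the conserved catalytic core had a median of -0.12, with 3 higher. The other 29 genes, which include Ndufa4 and the low Ndufa4l2, had 0.14 with 27 higher. Exon lengths ran from 1291 to 8086 bases in the core and from 572 to 5628 in the others, and the part of length was not tested. None of these groups holds a called gene.

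Ndufa12, an accessory subunit of the matrix arm of complex I (chr10:94198720-94221443), came nearest to a call. It was at 2598, 3168, 2865 and 3383 normalized counts in controls 1 to 4 and at 4496, 4141, 2893, 4375 and 4647 in mutants 1, 2, 3, 5 and 6. All mutants but mutant 3 lay above every control. The log2 fold change was 0.44 ± 0.15 (SE; 95% interval 0.11 to 0.77, adjusted p = 0.230 by limma, exact permutation p = 0.0317, where 0.00794 is the smallest possible). Without mutant 3 it was 0.56 with an adjusted p of 0.0281 by limma, the single call that any member received in any alternative.

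Cox5a, a nuclear subunit of cytochrome c oxidase (chr9:57521274-57532426), was at 3601, 4322, 4283 and 4261 in controls and 4202, 3247, 2438, 2949.8 and 3159 in mutants, so that mutant 1 lay among the controls and the other mutants below them. Its log2 fold change was -0.38 ± 0.15 (adjusted p = 0.305 by limma, exact permutation p = 0.0397). Ndufs1, the largest iron-sulfur subunit of complex I and part of its electron path, was at 1781, 1519, 1278 and 1570.1 in controls and 584, 1149, 1611, 1214 and 1369 in mutants. Mutant 1 held by far the lowest value, and the log2 fold change was -0.44 ± 0.25 (adjusted p = 0.485 by limma) and -0.20 without mutant 1. Exons of Ndufs1 overlap those of Eef1b2 on the opposite strand, a gene at 3932 normalized counts on average.

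Uqcrc1, a core protein of complex III (chr9:108936633-108949623), was at 5779, 4730.0, 4478 and 5017 in controls and 1588, 3362, 5844, 3708 and 6018 in mutants. Mutants 3 and 6 were above and mutants 1, 2 and 5 below every control. The log2 fold change of -0.43 ± 0.31 (adjusted p = 0.587 by limma) became -0.12 without mutant 1. It became 0.27 with name style as a covariate, which sets mutant 6 alone against the controls. Ndufa3, an accessory subunit of complex I, was at 1022, 1161, 1092 and 1355 in controls and 2971, 1704, 951, 1357 and 1467 in mutants, with a log2 fold change of 0.45 ± 0.26 (adjusted p = 0.495 by limma) and 0.22 without mutant 1. The largest nuclear value, 0.66 ± 0.60 (adjusted p = 0.653 by limma) for Ndufa4l2, rests on 5 to 23 reads per library.

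**Figure D4:**
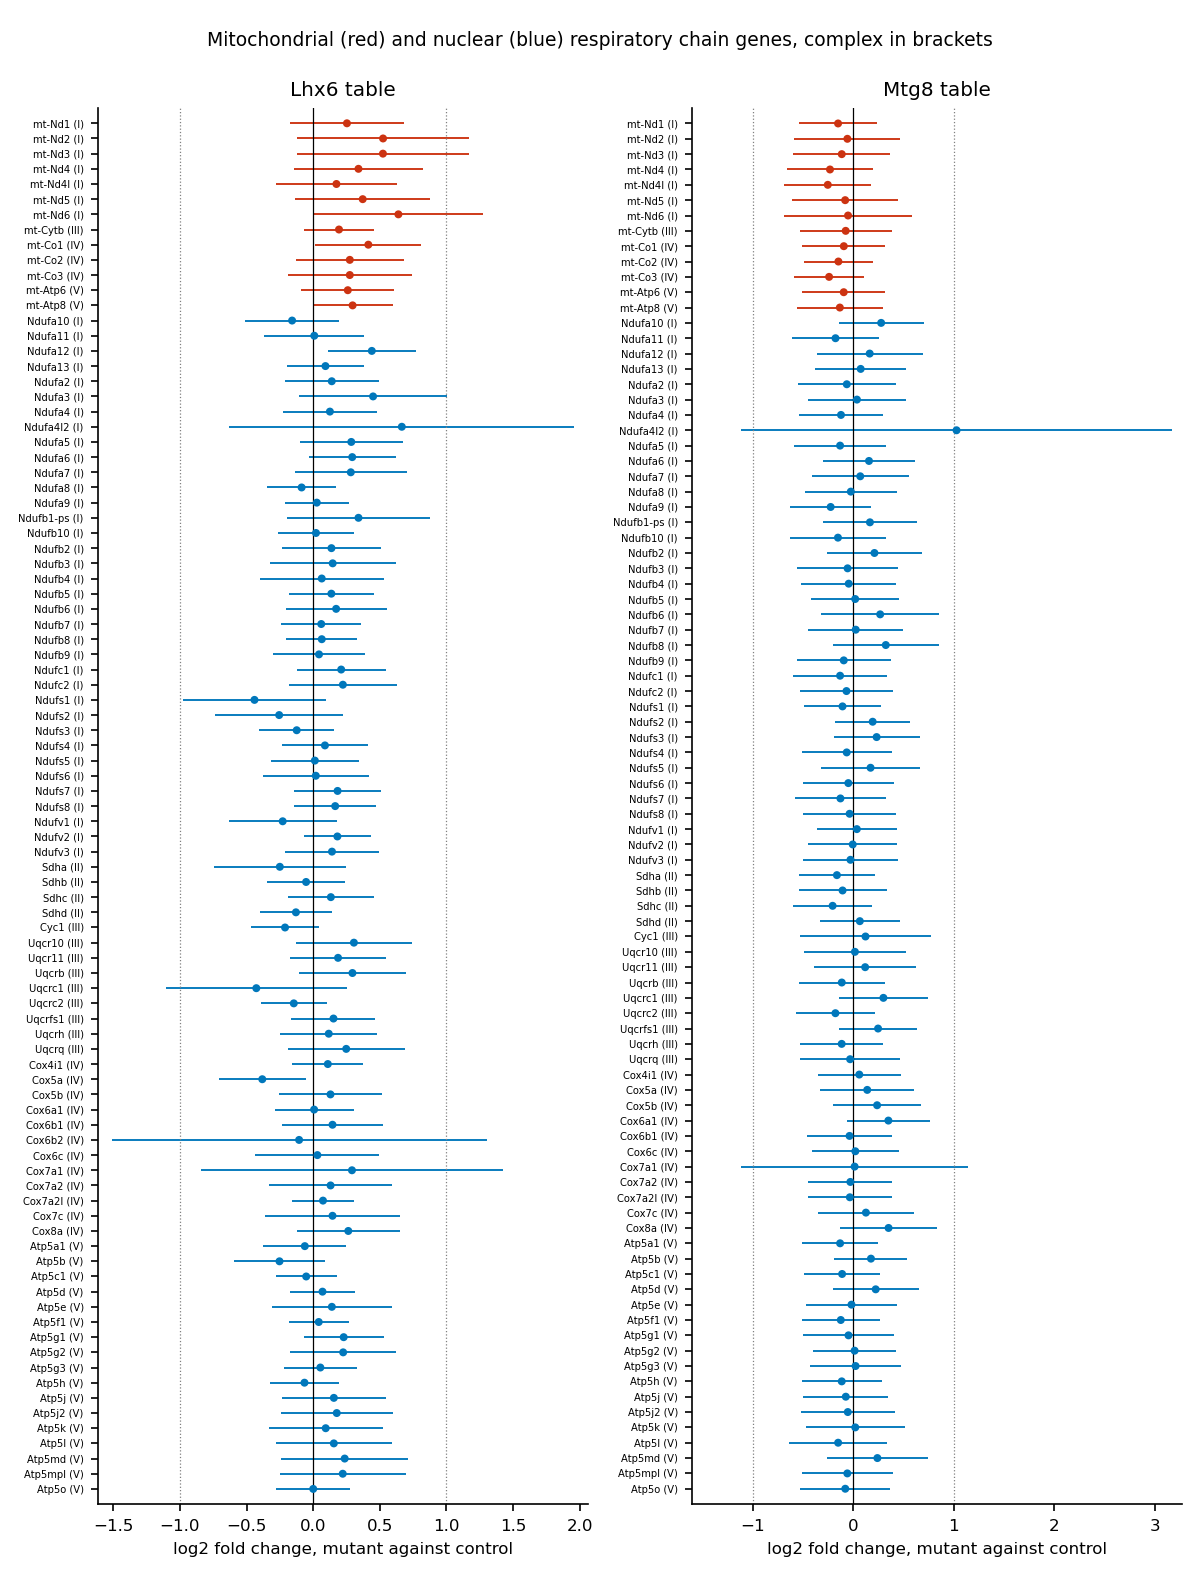
Log2 fold change of mutants against controls with its 95% interval for every tested member, mitochondrial in red and nuclear in blue, dotted lines at 2-fold either way. In the Lhx6 panel the mitochondrial points lie between 0.17 and 0.64, in the Mtg8 panel between -0.25 and -0.05.

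The libraries in which nuclear members deviated most were also those in which other short transcripts deviated, while members of middle and long length differed from other genes of their class in sign or size. In Lhx6 mutant 1, 51 of 78 nuclear members reached their highest value and 15 their lowest, and the exon lengths of these had medians of 1495 and 2552 bases. In Lhx6 mutant 3, 53 were at their lowest. Against the mean of the other libraries, the 26 members with the shortest exon length had a median log2 difference of 0.63 in mutant 1 and -0.50 in mutant 3. In the same length class, 707 other genes of like level had 0.38 and -0.39. The 26 members of middle length had 0.39 in mutant 1 and -0.36 in mutant 3, where 471 other genes had -0.15 and -0.11. The 26 longest members had 0.20 and -0.22, and 4009 other genes had -0.07 and 0.16. The comparison by length was chosen after the values were seen, and its part in the group differences was not tested.

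In the Mtg8 table, too, no member passed the test. limma called 0 of 13 mitochondrial and 0 of 77 nuclear members, and 0.0% of all 16132 genes. Members at an unadjusted p under 0.05 numbered 0 of 90, against 5.49% of all genes, 2.44% lower and 3.06% higher. DESeq2 and edgeR called 0 members, and 31 and 1 genes in all. No tested member had groups that did not overlap, which held for 10.2% of all genes, 5.52% with mutants lower and 4.68% with mutants higher. The 95% intervals lay within 2-fold either way for 13 of 13 mitochondrial and 75 of 77 nuclear members, and within 1.5-fold for 7 and 48. With 3 libraries against 3, the smallest exact permutation p is 0.1.

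The mitochondrial genes took 2.80%, 2.80% and 2.53% of reads in Mtg8 controls 1, 2 and 4 and 2.59%, 3.19% and 2.10% in mutants 2, 3 and 4, or 2.71% ± 0.156 and 2.63% ± 0.545 (SD, n = 3 each). The nuclear members took 1.18%, 1.21% and 1.19% in controls and 1.18%, 1.498% and 1.15% in mutants. The controls lay close together, and the mutants lay on both sides of them. The log2 ratio of the means was -0.04 for the mitochondrial and 0.09 for the nuclear share, and within name styles, where 1 or 2 libraries stand on a side, it was 0.07 and 0.15 among undated and -0.11 and -0.02 among dated libraries. Without mutant 3 the values were -0.21 and -0.04, and without mutant 4 they were 0.10 and 0.16. Mutant 3 held the highest value of 61 of 77 nuclear and 8 of 13 mitochondrial members, and mutant 4 the lowest of 53 and 13. In mutant 3 the 26 shortest nuclear members had a median log2 difference of 0.41 from the other libraries, with 0.36 for 496 other genes of that length and level, and in mutant 4 the values were -0.41 and -0.35. The 25 members of middle length had 0.41 in mutant 3 and -0.42 in mutant 4, where 345 other genes had 0.25 and -0.29, of the same sign. The 26 longest members had 0.32 in mutant 3 and -0.33 in mutant 4, where 3189 other genes had -0.15 and -0.09. The reads of the mitochondrial genes were 2.12 to 2.37 times those of the nuclear members in controls and 1.84 to 2.20 times in mutants. The groups overlapped in this ratio. For the rRNAs they did not, with 0.487% to 0.591% of reads in controls and 0.411% to 0.482% in mutants, but limma called neither rRNA (mt-Rnr2 log2 fold change -0.36 ± 0.16, adjusted p = 0.859 by limma; mt-Rnr1 -0.16 ± 0.17, adjusted p = 0.907). Summed markers of radial glia and dividing cells (11 genes, all present) ranged from 7838 to 9708 normalized counts in Mtg8 controls and 10861 to 15057 in mutants, and their part in these values was not tested.

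All 13 mitochondrial genes had a lower mean on the log2 scale in the libraries labelled Mtg8 mutant, from -0.25 (mt-Nd4l) to -0.05 (mt-Nd6), with a median of -0.11 against -0.01 over all genes. mt-Nd4l was at 5243, 4668 and 4076 in controls 1, 2 and 4 and at 4258, 4550.1 and 3046 in mutants 2, 3 and 4, with only mutant 4 below the controls (-0.25 ± 0.20, adjusted p = 0.883 by limma). mt-Nd6 was at 2372, 2563 and 1529 and at 2284, 2883 and 1269.7, so that mutant 3 was the highest and mutant 4 the lowest library (-0.05 ± 0.29, adjusted p = 0.983 by limma). Without mutant 4 the median over the 13 genes was 0.07 and 9 of them were on the higher side, whereas without mutant 3 it was -0.29 and 13 of 13 were lower. With equal totals of nuclear reads, 2 of the 13 crossed 0.

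The nuclear members had 37 of 77 values on the higher side and a median of -0.02. This balance turned on single libraries: without mutant 4 the median was 0.14 with 69 of 77 higher, and without mutant 3 it was -0.18 with 17 higher. With equal totals of nuclear reads it was 0.05 with 55 higher. At the low end, Ndufa9, an accessory subunit at the foot of the matrix arm, was at 2595, 2684 and 2758 in controls and 2611, 2418 and 1910.3 in mutants (-0.22 ± 0.18, adjusted p = 0.886 by limma). Sdhc, a membrane anchor of complex II, was at 2579, 2306 and 2541 and at 2416, 2193 and 1864 (-0.20 ± 0.18, adjusted p = 0.893 by limma). Uqcrc2, a core protein of complex III, was at 4131, 4227 and 4084 and at 4233, 3802 and 3069 (-0.18 ± 0.18, adjusted p = 0.905 by limma). In these the mutants straddled or touched the controls, and mutant 4 was the lowest. At the high end, Cox6a1 was at 2317, 2522 and 2649 in controls and 2555, 3453 and 3639.5 in mutants (0.35 ± 0.19, adjusted p = 0.859 by limma), and Cox8a at 1556, 1598 and 1754 and at 1559.9, 2814 and 2067 (0.35 ± 0.22, adjusted p = 0.866 by limma). Both are small nuclear subunits of cytochrome c oxidase. Ndufa4l2, at 1 to 39 reads per library, gave 1.03 ± 0.99 (adjusted p = 0.8995 by limma).

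Several subunits exist as a ubiquitous form and a form known from muscle, lung or testis, and the ubiquitous forms made up nearly all of the message. In Lhx6 controls Cox4i1 was 99.9% ± 0.0759 of the Cox4 family per kb (SD, n = 4), Cox6a1 99.9% of Cox6a, and Cox6b1 99.8% of Cox6b. Ndufa4 was 99.7% ± 0.241 of itself and Ndufa4l2. Ndufa4 is named as a complex I gene, although its protein is known as a subunit of complex IV. Cox8a was the only Cox8 gene in the tables. The muscle form Cox7a1 was 0.371% ± 0.150 of its family, in which Cox7a2 held 56.0% ± 1.96 and Cox7a2l, a factor that joins complexes III and IV, 43.7% ± 2.03. In Mtg8 controls the last 2 held 50.7% ± 2.12 and 48.9% ± 1.95 (SD, n = 3). In Lhx6 mutants these shares had a wider spread, at 56.7% ± 9.17 and 42.9% ± 9.09 (SD, n = 5).

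The 3 genes for subunit c of the ATP synthase encode the same mature protein with different import sequences. Atp5g3 held 51.6% ± 0.818 of the family per kb in Lhx6 controls, Atp5g2 30.0% ± 0.569 and Atp5g1 18.4% ± 0.360. In Lhx6 mutants these shares were 48.6% ± 2.13, 31.9% ± 2.68 and 19.5% ± 1.12 (SD, n = 5), and in Mtg8 controls 49.1% ± 3.73 for Atp5g3 and 32.3% ± 1.46 for Atp5g2. The order of the genes was the same in each group.

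Of the low forms, Cox4i2, Cox6a2 and Cox7b2 did not reach a mean of 10 in the Lhx6 table, and neither these nor Cox6b2 did so in the Mtg8 table. Cox6a2, the muscle form, had 4, 2, 4 and 6 reads in Lhx6 controls and 0, 0, 0, 1 and 0 in Lhx6 mutants, and 5, 0 and 5 against 5, 1 and 5 in the Mtg8 table. The Lhx6 groups of this untested gene did not overlap, but most of its counts lie at or near the limit of 3 reads that a count of 0 allows, so no fold is given. Cox4i2, the form associated with low oxygen, had 0, 2, 6 and 1 reads in Lhx6 controls and 18, 2, 6, 10 and 7 in Lhx6 mutants.

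Promoters could be matched to RefSeq (GRCm38.p6, 250 bases before to 50 after the start site) for 65 of the 81 nuclear members. The palindrome that NRF1 binds, a factor known for driving nuclear respiratory genes, was searched as the 10 letters in capitals below, which read the same on both strands. It was found in 5 of them (7.69%) and in 1.07% of 27025 genes, and is shown 5′ to 3′ on the strand of the gene.
Atp5g2, chr15:102671055-102671114, minus strand: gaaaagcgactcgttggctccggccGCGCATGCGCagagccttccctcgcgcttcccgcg
Atp5k, chr5:108434415-108434474, minus strand: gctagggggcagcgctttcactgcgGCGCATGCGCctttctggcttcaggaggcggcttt
Cox6a1, chr5:115349086-115349145, minus strand: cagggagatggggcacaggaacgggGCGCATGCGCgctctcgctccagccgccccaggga
Ndufa11, chr17:56717677-56717736, plus strand: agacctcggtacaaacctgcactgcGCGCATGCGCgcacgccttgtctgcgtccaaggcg
Uqcrc1, chr9:108936653-108936697, plus strand: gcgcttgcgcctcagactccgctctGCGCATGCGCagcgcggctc
The first base of the palindrome lies 42, 50, 162 and 60 bases before the start site in the first 4 and 30 bases after it in Uqcrc1, where the window ends.

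A motif known for YY1 at start sites was searched on both strands as the 11 letters in capitals below; none of the other motifs searched overlaps it in these stretches. It was found in 4 of 65 members (6.15%) and in 0.755% of genes. All 4 are complex I genes, and in each the motif lies after the start site, by 24 to 35 bases, on the strand of the gene.
Ndufa9, chr6:126849095-126849140, minus strand: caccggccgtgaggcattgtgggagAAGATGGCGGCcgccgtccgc
Ndufs4, chr13:114388045-114388084, minus strand: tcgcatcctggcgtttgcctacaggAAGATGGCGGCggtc
Ndufs6, chr13:73328433-73328474, minus strand: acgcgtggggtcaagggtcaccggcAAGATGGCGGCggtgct
Ndufs7, chr10:80249448-80249498, plus strand: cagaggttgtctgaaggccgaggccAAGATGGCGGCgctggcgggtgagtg
CCGGAAG, the core bound by ETS factors such as GABPA, was found on either strand in 17 of 65 (26.2%) and in 9.93% of genes, and TATAAA in 7 (10.8%) and in 15.7%. These counts describe the letters in this window only. None of the members with either motif was called in either table.

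Other genes of the pathway gave 0 calls by limma in both tables. They comprised 44 assembly factors, 28 and 27 genes for maintenance and expression of the mitochondrial genome (Lhx6 and Mtg8 tables), 9 nuclear regulators, 17 genes of electron carriers and entry, 15 of the citric acid cycle, 18 of glycolysis and 77 of the mitochondrial ribosome. At an unadjusted p under 0.05 they numbered, in that order, 2, 2, 0, 1, 0, 0 and 3 for Lhx6 and 0, 1, 0, 0, 1, 0 and 0 for Mtg8, where all genes had 12.7% and 5.49%. edgeR called 0 of them in both tables, and DESeq2 called 1, in the Lhx6 table, of 811 genes it called in all there. The gene DESeq2 called, named after its values were seen, was Ndufaf4, a complex I assembly factor (log2 fold change -0.46, adjusted p = 0.0398 by DESeq2, against 0.195 by limma). In the Lhx6 table the medians were -0.20 for expression of the mitochondrial genome (7 of 28 higher), -0.16 for the citric acid cycle (0 of 15 higher), -0.18 for electron carriers (2 of 17 higher), -0.07 for glycolysis (4 of 18 higher), -0.04 for assembly factors (21 of 44 higher), -0.03 for the mitochondrial ribosome (35 of 77 higher) and 0.14 for nuclear regulators (6 of 9 higher), beside -0.04 over all genes and 0.30 for the mitochondrial members. Tfam, which packages mitochondrial DNA and starts its transcription, was at 671 ± 45.9 normalized counts in Lhx6 controls and 701.2 ± 172 in mutants (log2 fold change 0.03 ± 0.19, adjusted p = 0.957 by limma). Nrf1 was at 566 ± 94.8 and 603 ± 116 (0.09 ± 0.19, adjusted p = 0.861). Ppargc1a, a coactivator of mitochondrial biogenesis, was low, at 94.5 ± 17.8 and 137 ± 63.4 (0.43 ± 0.33, adjusted p = 0.602). In the Mtg8 table they were at 698 ± 60.1 and 795 ± 164, 1136 ± 158 and 1176 ± 239, and 89.0 ± 39.8 and 75.3 ± 27.3.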

How the data were processed

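YFP+ cells of 15 embryos were sequenced as single 75-base reads from cDNA made with a low-input kit. The authors used fastp 0.20.1 for trimming, STAR 2.7b for alignment and featureCounts 1.6.4 for counting per gene (GENCODE, GRCm38.p6), and filtered out sex-linked genes, so X-linked subunits are not analysed here. The signal deposited by the authors is the count divided by DESeq2's size factor, in 1 table per comparison; their log2 fold changes, Wald scores and p-values were not used. Whether multiply aligned reads or strand were used is not given in the sources used here. All values were whole multiples of 1 read (100% within 0.01), so reads were recovered.

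limma 3.58.1 (R 4.3.3) was fitted with a trend to log2(normalized count + 1) of genes with a mean of at least 10, each table alone, two-sided, with Benjamini-Hochberg adjustment over all genes and a threshold of 0.05. Fold changes are on this scale, which understates those of low genes. Replicates are single embryos. Shares are percentages of all recovered reads and carry no test. The precision of each value is set by the number of embryos, and read limits cover counting error only. Alternatives were pseudocounts of 0.5 and 10, no filter, TMM factors, equal nuclear totals, a filter at a mean of 50, no trend, DESeq2 1.42.0 and edgeR 4.0.16 on recovered reads, a replicate block, name style as a covariate and each library left out. On simulated counts with a log2 change of 1.5, limma recovered 65.4% of 191 changed genes among 16392 (Lhx6 design) and 63.5% of 192 among 15888 (Mtg8 design), with 4 and 2 unchanged genes among 129 and 124 calls.

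Members and lists were chosen with earlier results of these data known. Named genes were all mitochondrial members, the nuclear member highest per kb in each complex, called nuclear members or else the 3 with the largest log2 fold change in each direction, the paired isoforms, the targeted genes, called genes of the lists, and Tfam, Ppargc1a, Nrf1 and the rRNAs. Overlaps of exons and shared 75-base runs came from the deposited coordinates and GENCODE M21 transcripts.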

Additional observations from a re-analysis of the deposited data

Results flagged for a closer look

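Within groups of 4 or 5 libraries, values were picked out where the highest or lowest library stood far from the rest by Dixon's ratio, a rule by which chance alone picks about 1 group in 20. Most of them came from Lhx6 mutant 1. Its mitochondrial share of 3.87% of reads, its mitochondrial rRNA share of 0.996% and its share on the chromosome 1 copies of 2.41% were each far above the other mutants. In the same library 10 mitochondrial genes were picked out as the highest of their group, at normalized counts of 109097 (mt-Cytb), 108434 (mt-Atp6), 107905 (mt-Co1), 105427 (mt-Co3), 63694 (mt-Co2), 45715 (mt-Nd4), 41736 (mt-Nd1), 16965 (mt-Nd2), 15782 (mt-Atp8) and 2058 (mt-Nd3). Among nuclear members Cox8a was picked out there at 4496. These values are not independent, since the genes share transcripts and, for several, sequence with the copies.

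Lhx6 control 4 was the highest control for mt-Cytb (91902), mt-Atp6 (74917) and mt-Nd4 (23199.6). Lhx6 control 1 was the lowest control for Cox5a (3601), and Lhx6 mutant 3 the lowest mutant for Ndufa12 (2893). Groups of 3 in the Mtg8 table are too small for the rule.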

How the results depend on the processing

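The counts of called members stayed at 0 in every alternative but 1: without Lhx6 mutant 3, 1 nuclear gene was called higher (Ndufa12, log2 fold change 0.56), so that the count with a library left out ran from 0 to 1. The cause was not tested. The log2 ratio of mitochondrial to nuclear reads differed between the Lhx6 groups by 0.22, and by 0.11 (without mutant 1) to 0.30 (without mutant 6) when 1 library was left out. It was -0.082 within the undated libraries, where mutant 6 is the only mutant, and the dated Lhx6 libraries hold no control. In the Lhx6 table, a fit with name style as a covariate therefore compares mutant 6 alone with the controls. Of the genes given with a log2 fold change of their own, Uqcrc1, mt-Nd4l, mt-Nd6, Tfam and Nrf1 changed sign. Among all tested members, 7 of 13 mitochondrial and 18 of 78 nuclear genes did so with name style in the Lhx6 table, 1 and 19 without Lhx6 mutant 1, and 9 of 13 and 34 of 77 without Mtg8 mutant 4. Uqcrc1 in the Lhx6 table gave 0.27 with name style as a covariate. mt-Nd4l in the Lhx6 table gave -0.33 with name style and from -0.017 to 0.30 with a library left out, the lowest without mutant 1. mt-Nd6 in the Mtg8 table gave 0.018 with equal nuclear totals, 0.0089 by edgeR, 0.11 with name style and from -0.30 to 0.29 with a library left out, the highest without mutant 4. Tfam in the Lhx6 table gave -0.0079 with TMM factors, -0.019 with equal nuclear totals, -0.013 with name style and from -0.076 to 0.18 with a library left out, the lowest without mutant 1 and the highest without mutant 3. Nrf1 there gave from -0.046 to 0.15 with a library left out, the lowest without control 2. Besides Ndufa12, Ndufaf4 and Bcl11b, the call changed for Sst in the Mtg8 table. Sst was called by DESeq2, with a minimum mean of 50, with the replicate block and without mutant 2. The block rests there on replicates 2 and 4 alone. The change for Bcl11b came with name style, where mutant 6 is the only mutant compared. The other 220 values for counts and shares and 442 for single genes kept their direction and side of the threshold, or moved by less than 1 SD. Adding the reads of the nuclear copies to the mitochondrial genes, an alternative chosen after the data were seen, gave a mitochondrial share difference of 0.27 (log2) in the Lhx6 table, and leaving the copies out of the total gave 0.27.

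Same-numbered libraries were not shown to be paired: the correlations of their deviations were -0.15, 0.00 and 0.07 in the Lhx6 table and 0.14 and 0.16 in the Mtg8 table, and the replicate number is not said to mark a litter. Numbers shared by library names tie the dated Mtg8 libraries, and Lhx6 controls 1 and 2 with mutant 6, and Lhx6 mutants 2 and 5 with each other, but leave the other mutants without a control of the same number. With the replicate number as a block, 0 members were called in both tables. Only numbers present in both groups bear on the genotype difference in that fit. They are 1, 2 and 3 in the Lhx6 table and 2 and 4 in the Mtg8 table, and the other libraries do not contribute to it. With the block the Lhx6 medians were 0.54 for mitochondrial and 0.11 for nuclear members (54 of 78 higher), and those for Mtg8 were -0.28 and -0.19 (14 of 77 nuclear members higher, 23 with the other sign), while calls over all genes went from 286 to 86 and from 0 to 100.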
